A study of Homo sapiens with 2 samples.

Results

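The peaks described here are those that held the most PROX1 tags in SW480R cells. They were chosen by their own tag count: every peak on the 22 autosomes with 104 tags or more was taken, leaving out the stretch from 126 to 130 Mb of chromosome 8. The rule found 1121 peaks among 22635 autosomal peaks outside that stretch, which is 4.95% of them, and among 23450 peaks in the whole deposited list. They are called highest-tag peaks below, and the other 21514 are called below-threshold peaks. A tag is a sequenced read assigned to a peak.

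SW480R is a subpopulation of SW480, an established and aneuploid human colorectal adenocarcinoma cell line. The ChIP group is 1 library, made with a goat antibody against human PROX1 from a pool of 3 independent immunoprecipitations, and the input group is 1 library of DNA from the same cells with no antibody. No treatment or time differs between them. With 1 library of each kind there is no replicate spread and no test between conditions. Shares carry exact (Clopper-Pearson) 95% binomial intervals and medians carry order-statistic 95% intervals. Both cover counting error only and treat neighbouring peaks as independent, and reads without molecular identifiers are not independent molecules.

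PROX1 is a homeobox transcription factor, the vertebrate relative of Drosophila prospero. It binds DNA through a combined homeodomain and prospero domain, and it directs lymphatic endothelial, hepatic, lens and neural development. In intestinal tumours it is known as a target of Wnt signalling. Immunoprecipitation of fixed chromatin enriches the DNA near the factor, so a peak with many tags is a place from which many immunoprecipitated fragments were sequenced. More copies of a region in the cells add tags to the ChIP and to the input alike, and copy number was not measured here.

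The highest-tag peaks held 169632 of the 846282 tags in the autosomal peaks considered, or 20.04%. Since tags chose them, their levels are given as a description. Their tag counts ran from 104 to 532 with a median of 134 (interquartile range 115 to 167), and below-threshold peaks had a median of 24 (16 to 40). Most lay near the lower end: 148 peaks (13.2%) had 200 tags or more and 33 had 300 or more. At the edge of the rule, 35 peaks had exactly 104 tags and 27 peaks just outside it had 103. The first members at 104 tags in genome order were chromosome 1 peaks at 9654111 to 9654151 (fold over input 104.26), 15555391 to 15555611 (fold 86.21) and 176772751 to 176772791 (fold 20.85). The first peaks at 103 tags were chromosome 2 peaks at 28436571 to 28436611 (fold 17.21), 61617351 to 61617391 (fold 25.81) and 69862231 to 69862271 (fold 51.63). The folds of these few peaks overlapped across the threshold, and the folds of all peaks at 104 and 103 tags were not compared.

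The fold over input varied widely among the highest-tag peaks. The fold of the highest-tag peaks ran from 13.03, the lowest value in the list, to 264.66, with a median of 28.8 (interquartile range 18.9 to 59.6). Below-threshold peaks had a median fold of 19.05 (15.04 to 28.07), a difference given as a description because fold and tags come from the same contrast. The fold was below 20 in 331 highest-tag peaks (29.5%) and 100 or more in 185 (16.5%). The input tags behind a peak were inferred from its tags and fold. The lowest inferred value, 1, was found in 189 highest-tag peaks (16.9%), a value of 5 or more in 605 (54.0%) and one of at least 8 in 303 (27.0%). At the lowest value the fold mostly restates the tag count, with a median fold of 117.29 and a median of 122 tags. No peak considered had a value below 0.9998, so 1 may stand for 1 input tag or for none, which could not be settled. The folds at this value may therefore not be measured ratios. Of below-threshold peaks, 78.7% had the lowest value. The rule fixes part of this, because a peak of 103 tags cannot reach an inferred input of 8 at the lowest fold. The highest inferred input of a below-threshold peak was 7.44.

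**Figure D1:**
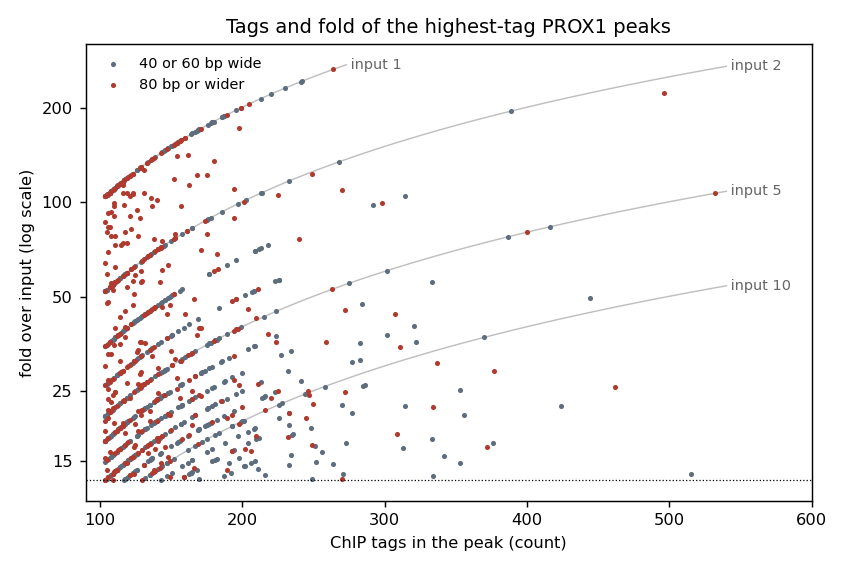
Each point is 1 of the 1121 highest-tag peaks, by its ChIP tags (count) and its fold over input (log scale), coloured by listed width; grey lines join tags and folds of equal inferred input and the dotted line is the lowest fold of the list, 13.03. Peaks up to 60 bp wide lie on steps of whole input tags, as do 56.1% of those from 80 bp. The points spread from the line of inferred input 1 down to the dotted line. The peak with 515 tags lies near the dotted line.

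The 10 peaks with the most tags were spread over 7 chromosomes, with 3 on chromosome 19 and 2 on chromosome 20. The first was at 37594411 to 37594531 of chromosome 20, in band 20q12, with 532 tags at a fold of 106.67. Its nearest neighbour lay 140 bp away and held 37 tags, the most of any of the 3 other peaks within 10 kb. The second, at 60358591 to 60358631 in band 20q13.33, held 515 tags at a fold of only 13.59, with an inferred input of 38. No other peak lay within 132.38 kb of it. These peaks had like tag counts and differed in fold and in company.

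On chromosome 19, the peak at 54763331 to 54763471 (19q13.33) held 496 tags at a fold of 222.55, and a peak of 55 tags lay 120 bp away. The peak at 53753351 to 53753531 (19q13.32) held 462 tags at a fold of 25.73, and its single neighbour within 10 kb held 14 tags. The peak at 53319111 to 53319151 (19q13.32) held 416 tags at a fold of 83.41 and stood alone, 109.04 kb from the next peak. All 3 were on the long arm within about the same part of the chromosome, with different folds and different surroundings.

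The other 5 lay on chromosomes 15, 7, 21, 12 and 2. On chromosome 15, 83662671 to 83662711 (15q25.3) held 444 tags at a fold of 49.46 in a run of 6 peaks, of which another held 198 tags. On chromosome 7, 104371551 to 104371591 (7q22.1) held 424 tags at a fold of 22.37, and the peak 100 bp from it held 211 tags. On chromosome 21, 35432991 to 35433151 (21q22.12) held 400 tags at a fold of 80.2, with a peak of 123 tags within 10 kb. Each of these 3 had a further highest-tag peak within 10 kb. On chromosome 12, 27885791 to 27885831 (12p11.22) held 389 tags at a fold of 194.99 and stood alone, 13.22 kb from a peak of 15 tags. On chromosome 2, 84693911 to 84693951 (2p11.2) held 387 tags at a fold of 77.59 and stood alone, 126.58 kb from a peak of 13 tags. In all, 4 of the 10 stood alone.

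Highest-tag peaks were mostly narrow, and wide ones were more common among them than among below-threshold peaks. The median width was 40 bp in both groups. A width of 80 bp or more was listed for 417 highest-tag peaks (37.2%, interval 34.4 to 40.1) and for 27.5% of below-threshold peaks (26.9 to 28.1), and the share was higher on 20 of 22 chromosomes. Widths of 120 or 140 bp made up 18.1% (15.9 to 20.5) against 13.8% (13.3 to 14.2), and widths of 160 bp or more 11.7% (9.86 to 13.7) against 7.17% (6.83 to 7.53). The largest gap was at 60 bp, the width of 39 highest-tag peaks (3.48%, 2.49 to 4.73) and of 15.3% of below-threshold peaks (14.9 to 15.8). The 40 bp shares were 59.3% (56.4 to 62.2) and 57.2% (56.5 to 57.8), so their intervals overlap. Widths are multiples of 20 bp set by the authors' peak caller.

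**Figure D2:**
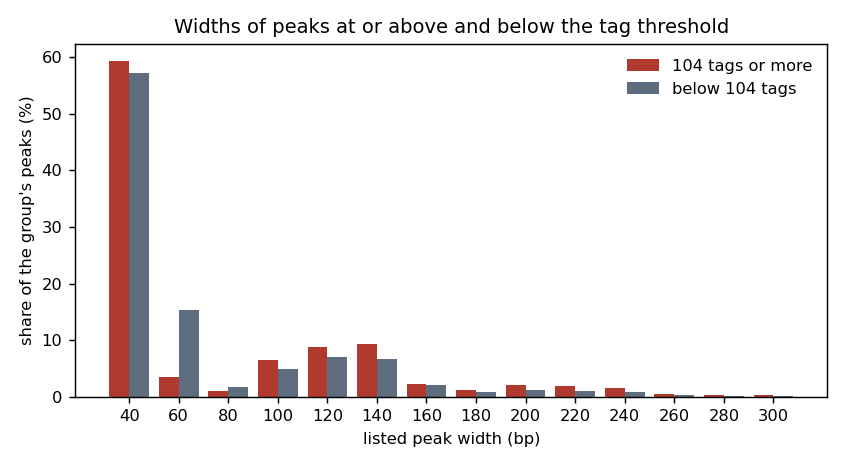
Bars give the share of peaks (%) at each listed width (bp, up to 300 bp) for the 1121 highest-tag peaks (red) and the 21514 below-threshold peaks (grey). The groups have near-equal bars at 40 bp, the red bar is lower at 60 bp (3.48% against 15.3%) and higher at 100 to 140 bp; 20 highest-tag peaks were 300 bp or wider.

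The width difference was not found against the stronger of the below-threshold peaks. Of the 3654 below-threshold peaks with 50 tags or more, 38.7% (37.1 to 40.3) were 80 bp or wider, against 37.2% of the highest-tag peaks. Across tag counts the wide share rose from 11.9% at 13 to 15 tags to 41.1% (37.7 to 44.5) at 81 to 103 tags, and it was 40.2% (36.6 to 43.8) at 104 to 150, 32.7% (26.8 to 38.9) above 150 and up to 200, and 29.9% (22.5 to 38.04) above 200. The intervals of these last 4 classes overlap one another, and the difference between them was not tested.

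Among the highest-tag peaks, width and inferred input moved in opposite directions. Peaks of 80 bp or more were 50.3% (42.9 to 57.6) of those at an inferred input of 1, 43.7% (38.3 to 49.3) at 2 to 4, 31.5% (26.3 to 37.0) at 5 to 7 and 27.7% (22.8 to 33.1) at 8 or more. The median tag counts of these classes were 122, 127, 131 and 163. The inferred input is a whole number, within 0.02, for each highest-tag peak up to 60 bp wide and for 56.1% of those from 80 bp, so it is an approximation for many wide peaks. The widest highest-tag peak spanned 440 bp, at 92579591 to 92580031 of chromosome 14 (14q32.12), with 270 tags at a fold of 109.27. It was followed by 11771271 to 11771691 of chromosome 12 (12p13.2), 420 bp wide with 216 tags, and 10703371 to 10703771 of chromosome 11 (11p15.3), 400 bp wide with 110 tags.

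Highest-tag peaks stood alone less often than below-threshold peaks. A peak stands alone when no other peak lies within 10 kb of its edges, and peaks joined within that distance form a run. Of the highest-tag peaks, 265 stood alone (23.6%, interval 21.2 to 26.2), against 44.7% (44.0 to 45.3) of below-threshold peaks, and the share was lower on 22 of 22 chromosomes. Runs of 2 to 4 peaks held 49.5% (46.5 to 52.5) of the highest-tag peaks against 42.8% (42.1 to 43.5), and runs of 5 or more held 26.9% (24.3 to 29.5) against 12.5% (12.1 to 12.96). In runs of 10 or more the shares were 3.66% (2.64 to 4.93) and 1.86% (1.69 to 2.05). The peaks with the most tags thus lay in company of other peaks more often than the rest of the list.

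The change with tag count was gradual, with no step at the threshold. The share that stood alone was 54.5% at 13 to 15 tags, 44.6% at 21 to 30, 33.2% at 51 to 80, 27.0% (24.0 to 30.1) at 81 to 103 and 25.3% (22.2 to 28.6) at 104 to 150. Above 150 and up to 200 tags, 49 of 245 peaks stood alone (15.2% to 25.6%), and above 200 tags the share was 21.5% (15.1 to 29.1) above 200. Against below-threshold peaks of 50 tags or more, 31.8% of which stood alone (30.3 to 33.4), the highest-tag share was still lower.

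**Figure D3:**
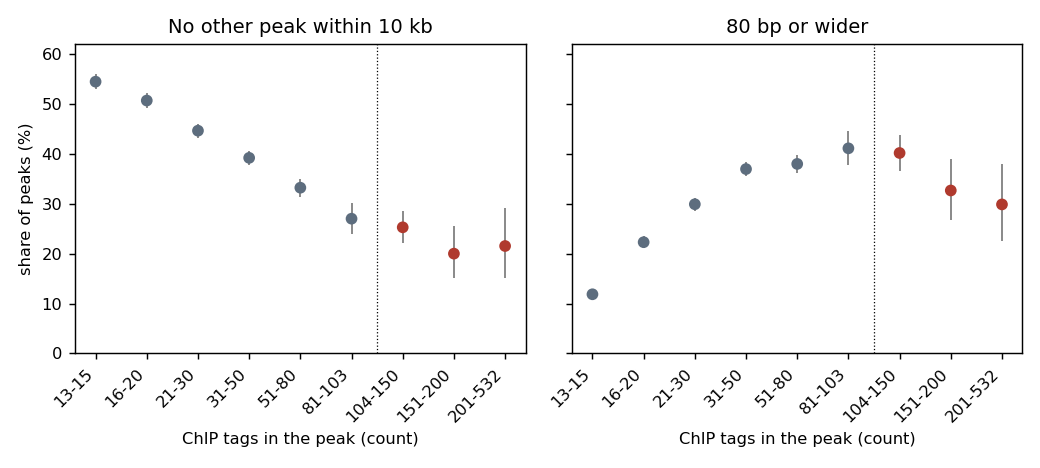
Points give the share of peaks (%) that stand alone (left) and that are 80 bp or wider (right) by ChIP tags in the peak (count), with exact 95% binomial intervals; the dotted line is the threshold of 104 tags and red points are highest-tag peaks. The alone share falls from 54.5% to 21.5% above 200 tags and passes the threshold without a step, and the wide share rises to 41.1% at 81 to 103 tags and is 29.9% above 200 tags.

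Much of the company was very close. The median distance from a highest-tag peak to the nearest other peak was 720 bp (interquartile range 140 to 7820 bp), against 6420 bp (420 to 38640 bp) for below-threshold peaks. A neighbour lay within 200 bp for 381 highest-tag peaks (34.0%, 31.2 to 36.8) and 18.1% (17.6 to 18.6) of below-threshold peaks, and within 1 kb for 53.1% (50.1 to 56.03) and 31.9% (31.2 to 32.5). Among below-threshold peaks of 50 tags or more, these shares were 26.8% (25.4 to 28.3) and 44.0% (42.4 to 45.6). Such pairs of close peaks could be distinct sites or a single site split in the list, which was not tested. With peaks within 1 kb merged to 1 place each, 45.7% of the places with 104 tags or more stood alone against 63.6% of the others, so the order of the groups was kept while both shares rose. Runs of 5 or more such places held 6.40% against 2.91%. The most isolated highest-tag peaks were a 117-tag peak at 48282011 to 48282051 of chromosome 22 (22q13.33), 398.64 kb from the next peak, a 111-tag peak at 138157511 to 138157551 of chromosome 3 (3q22.3), 376.36 kb away, and a 107-tag peak at 25698811 to 25699031 of chromosome 8 (8p21.2), 349.7 kb away.

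Highest-tag peaks also lay near each other. Another highest-tag peak was found within 10 kb of 260 of them (23.2%, 20.8 to 25.8), while 7.98% (7.62 to 8.35) of below-threshold peaks had one at that distance. The share was higher among the highest-tag peaks on 20 of 22 chromosomes, and on chromosomes 4 and 6 no highest-tag peak had such a neighbour. Within 1 kb the shares were 12.4% (10.5 to 14.5) and 3.42% (3.18 to 3.67). Below-threshold peaks of 50 tags or more lay between, at 12.7% (11.6 to 13.8) within 10 kb and 5.97% (5.22 to 6.78) within 1 kb. With peaks within 1 kb merged, 12.2% of the highest-tag places had another within 10 kb, against 4.12% of the others. Joined within 10 kb, the 1121 peaks occupied 968 places, of which 842 held 1 of them, 108 held 2 and 18 held 3 or more. Of the 4442 runs of 2 or more peaks in the list considered, 703 (15.8%) held a highest-tag peak. Of the 37 runs of 10 or more peaks, 21 (56.8%) did, and longer runs have more peaks that could pass the threshold.

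The run with the most highest-tag peaks lay on chromosome 19 at 43835651 to 43876091 (19q13.2), where 6 of 18 peaks passed the threshold over 40.44 kb. Their tag counts, in genome order, were 169, 105, 141, 110, 143 and 142, and their folds 169.42, 47.62, 29.57, 55.14, 143.36 and 14.24. The 12 others had a median of 31 tags (range 15 to 87). Peaks of like tag count in this run thus lay far apart in fold.

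A run of 7 peaks on chromosome 20 at 23070471 to 23084991 (20p11.21) held 5, with 127, 119, 277, 175 and 136 tags. Their folds were 15.91, 23.86, 30.85, 15.95 and 19.48, and their inferred inputs lay between 5 and 11. The first 3 lay side by side, from 23070471 to 23070991.

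On chromosome 2, 4 of 6 peaks passed within 3.14 kb at 29824471 to 29827611 (2p23.1). The 3 neighbouring 40 bp peaks that start at 29824471, 29824591 and 29824711 held 268, 196 and 242 tags at folds of 134.33, 196.49 and 242.6, and another that starts at 29825471 held 172 tags at a fold of 28.74. High tag counts came with high folds in the first 3 of these peaks, at an inferred input of 1 or 2.

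Runs with 4 highest-tag peaks were also found on chromosomes 13, 19 and 21. At 105595531 to 105602591 of chromosome 13 (13q33.2), the 4 held 112, 133, 208 and 208 tags at folds of 112.28, 133.33, 52.13 and 34.75. At 44584011 to 44593791 of chromosome 19 (19q13.2), all 4 peaks of the run passed, with 206, 143, 156 and 159 tags at folds of 16.15, 13.03, 17.38 and 13.28. At 35221171 to 35281811 of chromosome 21 (21q22.12), 4 of 22 peaks passed, with 129, 150, 128 and 191 tags at folds of 18.47, 50.12, 128.32 and 14.73. The chromosome 19 run was near the lowest fold throughout, while the other two spanned a wide range.

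Below-threshold peaks close to a highest-tag peak held more tags than other below-threshold peaks. Neighbours that are highest-tag peaks themselves were left out, since the rule fixes their counts. The 1717 below-threshold peaks within 10 kb of a highest-tag peak had a median of 30 tags (interval 29 to 31). The 10185 that lay within 10 kb of another below-threshold peak but of no highest-tag peak had a median of 26 (26 to 27), and the 9612 that stood alone had 21 (21 to 21). Counts of 50 tags or more were found in 27.0% (24.9 to 29.1), 19.9% (19.1 to 20.7) and 12.1% (11.5 to 12.8) of these groups. Within chromosomes, the median near highest-tag peaks was higher than that near below-threshold peaks alone on 17 of 22, equal on 3 and lower on the other 2. Near below-threshold peaks of 50 tags or more, with no highest-tag peak within 10 kb, the median was 29 (28 to 29), close to the 30 near highest-tag peaks.

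The difference was largest within 200 bp, and the median fell further with distance. Within 200 bp of the nearest highest-tag peak, the 328 below-threshold peaks had a median of 38.5 tags (35 to 43), against 29 (29 to 30) for peaks that lay as close to a below-threshold peak with no highest-tag peak within 10 kb. From 200 bp to 1 kb the medians were 29 (26 to 31) and 27 (26 to 28), and from 1 to 10 kb they were 28 (27 to 30) and 24 (24 to 25). With the nearest highest-tag peak at 10 to 100 kb the median was 27 (26 to 28), at 100 kb to 1 Mb it was 24 (24 to 25), and beyond 1 Mb it was 22 (22 to 23). The comparison peaks at these distances have no peak at all within 10 kb. Their medians were 22 (21 to 22), 20 (19 to 20) and 16 (15 to 21, 51 peaks). Peaks grouped by distance to a highest-tag peak may have below-threshold neighbours within 10 kb, so the groups are not matched beyond 10 kb. Medians were lower at greater distances in both groups. Intervals overlapped in the last 2 comparison classes and, by distance to a highest-tag peak, across the classes from 200 bp to 100 kb. Raised input (inferred value of at least 2) in these peaks fell over the same distances, from 35.7% (30.5 to 41.1) within 200 bp to 26.5% (24.9 to 28.1) at 10 to 100 kb and 17.8% (17.0 to 18.6) beyond 1 Mb. A peak with few tags cannot reach an inferred value of 2 at the lowest fold, so this share is tied to the tags themselves. The part of input in the pattern of tags was not tested.

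**Figure D4:**
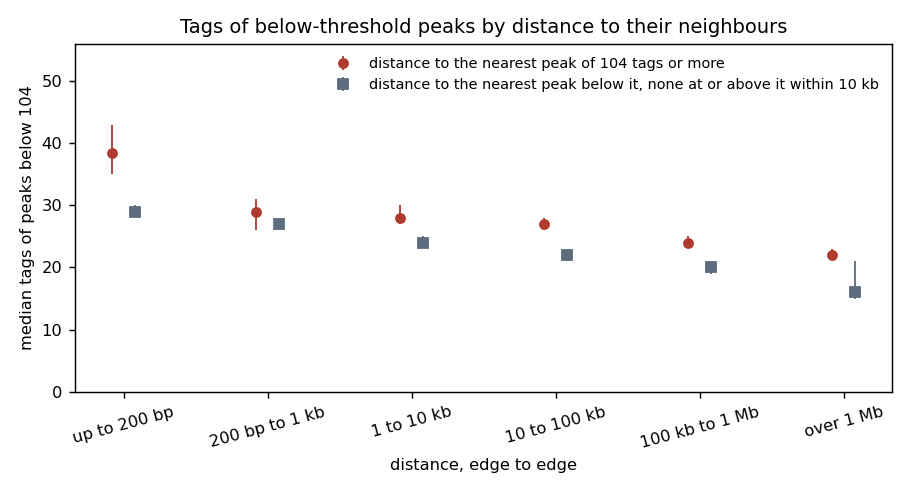
Median ChIP tags (count) of below-threshold peaks by edge-to-edge distance to the nearest highest-tag peak (red circles) or, where no highest-tag peak lies within 10 kb, to the nearest below-threshold peak (grey squares), with order-statistic 95% intervals. The red median is 38.5 within 200 bp and 22 beyond 1 Mb. It lies above the grey one in each class, with overlapping intervals from 200 bp to 1 kb. Beyond 10 kb the grey peaks all stand alone, while red ones may have below-threshold neighbours within 10 kb, so those classes are not matched.

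Highest-tag peaks were unevenly spread over the chromosomes, also relative to the number of peaks there. Against 4.95% on all autosomes, they made up 13.1% of the peaks on chromosome 21 (50 of 382, interval 9.87 to 16.9), 12.8% on chromosome 20 (100 of 782, 10.5 to 15.3) and 10.2% on chromosome 19 (52 of 509, 7.72 to 13.2). The lowest shares were those of chromosome 4 (12 of 797, 1.51%, 0.780 to 2.62), chromosome 6 (22 of 1242, 1.77%, 1.11 to 2.67) and chromosome 3 (40 of 1436, 2.79%, 1.997 to 3.77). The intervals of the 3 highest do not overlap those of the 3 lowest. Chromosomes 19, 20 and 21, pooled because their shares were highest, held 7.39% of the peaks and 18.02% (15.8 to 20.4) of the highest-tag peaks. Per length, chromosome 20 held 1.60 highest-tag peaks per Mb, chromosome 21 held 1.07 and chromosome 19 held 0.815, against 0.0627 on chromosome 4. The shares depended on the measure of strength: among as many peaks with the highest fold, chromosome 21 had 7.07% (4.71 to 10.1) and chromosome 4 had 3.01% (1.94 to 4.45). Chromosomes 2 (129) and 1 (119) had the largest numbers, at shares of 6.16% and 5.26%.

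The median of below-threshold peaks was 27 tags on chromosome 20, 26 on chromosome 21 and 25 on chromosome 19, against 21 on chromosome 4, 22 on chromosome 6 and 24 on chromosome 3. Chromosomes 7, 17 and 22 also had a median of 26, and chromosomes 1, 2 and 13 one of 25. Raised input, an inferred value of at least 2, occurred in 25.7% (22.4 to 29.1) of below-threshold peaks on chromosome 20, 27.8% (23.7 to 32.1) on chromosome 19 and 23.5% (19.04 to 28.4) on chromosome 21, against 14.5% (12.1 to 17.2) on chromosome 4 and 16.1% (14.0 to 18.2) on chromosome 6. Across the 22 chromosomes, the share of highest-tag peaks and this share of raised input had a Spearman rho of 0.68 and a Pearson r of 0.60, and without chromosomes 19, 20 and 21 they had 0.61 and 0.60. The share of highest-tag peaks and the median tags of below-threshold peaks had a rho of 0.81 and an r of 0.74 across the 22 chromosomes. Both are taken from the same tag counts, on either side of the threshold, so this relation is partly built in. A peak with few tags cannot reach an inferred input of 2 at the lowest fold, so raised input is tied to tag counts. These are descriptions over chromosomes that share both libraries. Chromosome 22 had the highest raised-input share, 29.2% (24.8 to 34.0), and 5.11% highest-tag peaks (3.19 to 7.70). Copy number, input and binding cannot be told apart here.

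**Figure D5:**
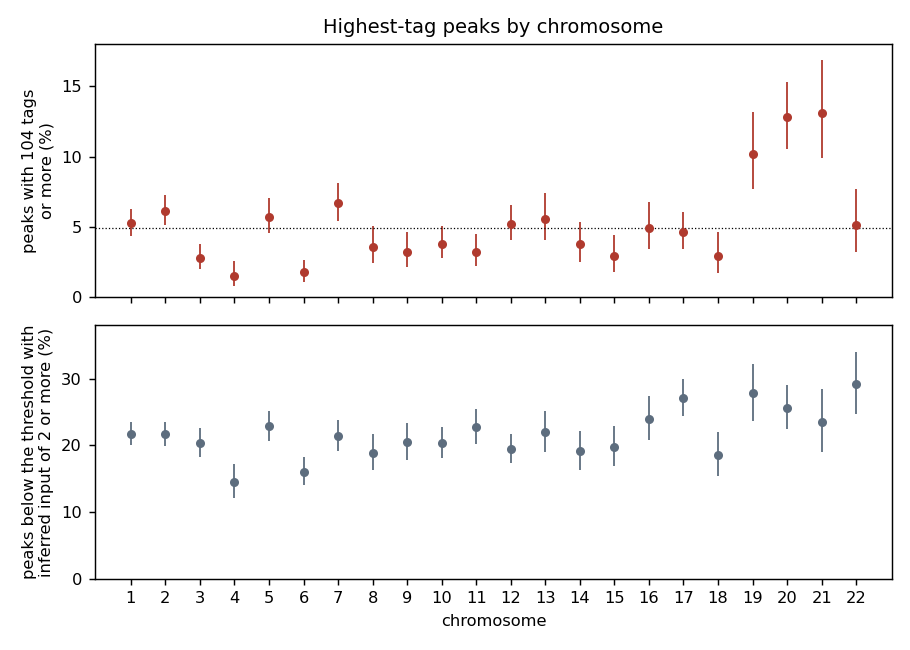
By chromosome, the share of peaks with 104 tags or more (%, top; the dotted line is 4.95%, the share over all of them) and the share of below-threshold peaks whose inferred input is at least 2 (%, bottom), with exact 95% binomial intervals. Chromosomes 19, 20 and 21 stand above all others in the top panel at 10.2% to 13.1%, and chromosomes 4 and 6 are lowest in both panels.

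Of the 17 chromosomes with 100 peaks or more on each arm, the intervals of the arms overlapped on 12 and did not on 5. On chromosome 19 the long arm had 13.7% highest-tag peaks (45 of 329, 10.2 to 17.9) and the short arm 3.89% (7 of 180, 1.58 to 7.85). The short arm was the higher one on chromosome 12, with 8.74% (38 of 435, 6.26 to 11.8) against 3.44% (30 of 871, 2.34 to 4.88), and on chromosome 2, with 8.62% (79 of 916, 6.89 to 10.6) against 4.24% (50 of 1179, 3.16 to 5.55). Chromosome 10 had 1.32% on its short arm (5 of 379, 0.430 to 3.05) and 4.92% on its long arm (42 of 853, 3.57 to 6.60). Chromosome 1 had 6.59% on its short arm (5.25 to 8.16) and a lower share on its long arm (41 of 1079, 2.74 to 5.12). On chromosome 20 both arms were high, at 11.98% (8.70 to 15.9) and 13.4% (10.4 to 16.9). The lowest arm with 100 peaks or more was 9p, with 1 highest-tag peak among 197 (0.508%, 0.0129 to 2.80). Raised input in below-threshold peaks of chromosome 1 was found in 24.3% on the short arm (21.8 to 26.9) and 19.1% on the long arm (16.7 to 21.6). On the other 4 of the 5 chromosomes the intervals of raised input overlapped between the arms, with 26.01% on 19p and 28.9% on 19q, 18.98% on 10p and 21.1% on 10q, 19.9% on 12p and 19.3% on 12q, and 21.98% on 2p and 21.4% on 2q. Its part in the differences was not tested. These arms were named after their values were seen.

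The bands with the most highest-tag peaks were 19q13.2 with 19 of 82 peaks (23.2%, 14.6 to 33.8), 21q22.12 with 17 of 109 (15.6%, 9.36 to 23.8), 20p11.21 with 16 of 64 (interval 15.02 to 37.4), 20q13.33 with 15 of 58 (25.9%, 15.3 to 39.0) and 2p21 with 14 of 102 (13.7%, 7.71 to 21.96). Bands 21q22.3 (14 of 106) and 2p14 (14 of 142) held as many as 2p21. Among them, 19q13.2, 20p11.21 and 21q22.12 hold the multi-peak runs of chromosomes 19, 20 and 21 described above. By Giemsa stain, which marks gene-poor and AT-rich chromatin darkly, the darkest bands had 2.75% (47 of 1708, 2.03 to 3.64) and the unstained bands 5.39% (686 of 12735, 5.00 to 5.79). The intermediate grades had 5.90% (5.00 to 6.91), 4.25% (3.597 to 4.99) and 4.38% (3.58 to 5.29), from light to dark. Raised input was less common in below-threshold peaks of the darkest bands (11.6%, 10.1 to 13.2) than in those of unstained bands (23.6%, 22.9 to 24.4). Below-threshold peaks had a median of 21 tags in the darkest bands and 25 in unstained ones, and raised input is tied to tag counts. The part of raised input in the difference of highest-tag shares was not tested. No highest-tag peak was found among 51 peaks at the centromeric bands, which allows a share of up to 5.88% by the limit of 3 counts and 6.98% by the exact interval.

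Highest-tag peaks at low and at raised inferred input differed in chromosome and less in company. Chromosomes 19, 20 and 21 held 10.1% (6.16 to 15.3) of those at an inferred input of 1, 16.5% (12.7 to 20.99) at 2 to 4, 19.2% (14.9 to 24.1) at 5 to 7 and 23.4% (18.8 to 28.6) at 8 or more. These classes had median tag counts of 122, 127, 131 and 163, and the chromosomes were pooled for their high shares. The rise is thus not independent of the choice by tags. The share that stood alone was 19.05% (13.7 to 25.4), 24.8% (20.2 to 29.8), 23.8% (19.1 to 29.1) and 25.1% (20.3 to 30.4) in the same classes, with overlapping intervals. When the list was restricted to peaks at an inferred input of 1, 26.5% (20.3 to 33.3) of the 189 highest-tag peaks stood alone against 53.2% of the others, and the chromosome 21 share was 1.93% (0.630 to 4.45) against 1.10% for all chromosomes.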

How the data were processed

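PROX1 ChIP-seq of SW480R cells was measured with 1 ChIP and 1 input library. Per the submitters' processing notes, reads were placed on hg18. The aligner and peak caller were not given in the sources used here. Pooling of 3 immunoprecipitations is per the series' design text. The deposited list, made by the authors from ChIP against input, has no header, so columns were read from its values: whole-number tag counts that are not normalized, a fold (ratio of ChIP to input tags) and a p-value, which the authors' list gives as at most 0.00099 and which was not used. Library depths are unknown. Coordinates are printed as listed, since a count from 0 or 1 could not be settled.

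Members and comparisons were chosen with earlier results of these data known. Input was inferred as tags times 1.0025 divided by fold, and is raised at 2 or more. Whether an inferred value of 1 stands for 1 input tag or for none could not be settled. At the lowest fold, 13.03, a peak with few tags cannot reach 2, so every share with raised input depends on tag counts. Runs join edges within 10 kb. Named items are the 10 highest-tag peaks, the 3 on each side of the threshold, the 3 widest and 3 most isolated, the runs with the most members (5, extended to 6 by a tie), the 3 highest and lowest chromosomes and the 5 fullest bands (7 with ties); arms were added afterwards. Bands came from circlize 0.4.16 and lengths from GenomeInfoDb 1.38.1 (R 4.3.3). Python 3.11.15, numpy 2.4.6, scipy 1.17.1, pandas 2.3.3 and matplotlib 3.10.9 were used, and runs and distances were tested on simulated data. No sequence or gene is given, because no hg18 genome or annotation was used here. No p-value was computed.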

Additional observations from a re-analysis of the deposited data

Results flagged for a closer look

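Peaks with 104 tags or more also occurred outside the autosomes compared above, where no comparison used them. On chromosome X there were 4 among 500 peaks (exact 95% interval 0.218% to 2.04%), the highest with 148 tags. This interval lies below the 4.95% of the autosomal peaks considered. On the mitochondrial genome there were 30 among 33 peaks (90.9%, 75.7 to 98.1), the highest with 5495 tags, and this interval lies above 4.95%. They are listed as high tag counts in data that the comparisons leave out. More copies of a region add tags, and copy number was not measured for chromosome X or the mitochondrial genome. Copy number, input and binding cannot be told apart for these peaks.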

How the results depend on the processing

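Of 73 values computed under other settings, 30 stayed within the counting interval of the reported value, 41 moved outside it without changing sides and 2 changed sides. Comparing with below-threshold peaks of 50 tags or more leaves the member values as they are. The share that stood alone and the neighbour median of that setting thus stayed within by construction. The median width was 40 bp in both groups, so it had no side to change. The share of peaks 80 bp or wider changed sides against below-threshold peaks of 50 tags or more (37.2% against 38.7%), and the share with raised inferred input did so when as many peaks were ranked by fold (9.28% against 25.2%), since the fold divides by input. At a threshold of 80 tags, 29.2% of members had another member within 10 kb, 77.7% had raised input, neighbours had a median of 27 tags, and members made up 19.6% of chromosome 21 and 3.26% of chromosome 4, against 8.90% of all peaks. At 200 tags (148 members), 29.7% were wide (22.5 to 37.8), against 28.0% of the peaks below 200 tags, a share within that interval. The width difference was thus not resolved at that threshold. Of these members, 20.9% stood alone and 35.1% lay in runs of 5 or more. Another member lay within 10 kb for 9.46%, and 95.3% had raised input. Their neighbours had a median of 36 tags, and the shares of chromosomes 21 and 4 were 1.83% and 0%, against 0.654% of all peaks. Joining within 5 kb gave 29.4% alone, 15.9% in runs of 5 or more and 18.6% with another member in reach, and joining within 20 kb gave 16.6%, 39.0% and 28.0%. With peaks within 1 kb merged, these were 45.7%, 6.40% and 12.2%, and neighbours had a median of 32 tags. In the stricter list of peaks at or above the median fold, 40.8% of members were wide, 35.0% stood alone, 13.4% lay in runs of 5 or more, 77.3% had raised input, neighbours had a median of 39.5 tags, and chromosome 4 had 2.70%, against 6.86% of all peaks. Ranking by fold gave 40.9% wide, 19.2% with another member within 10 kb, and 7.07% and 3.01% on chromosomes 21 and 4, against 4.95%. Among peaks at the lowest inferred input, 50.3% were wide (median width 80 bp), 26.5% stood alone, 17.5% lay in runs of 5 or more, 8.47% had another member within 10 kb, neighbours had a median of 25 tags, and chromosomes 21 and 4 had 1.93% and 0.445%, against 1.10%. Keeping the left-out stretch of chromosome 8 in moved none of these values outside its interval. The cause of the other shifts was not tested. No paired analysis was possible because there is 1 library of each kind. Library depth is unknown and is not a limit that could be assessed. Only listed peaks enter, so places below the lowest fold or under 13 tags count as empty in every share of peaks that stand alone.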
